A study of Mus musculus with 16 samples.

Results

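Described here are 10 genes that lie close together on mouse chromosome 2 around Pla2g4e: Aqr, Pak6, Rmdn3, Exd1, Ndufaf1, Pla2g4e, Ganc, Capn3, Wdr76 and B2m, in their order along the chromosome. They are 10 of the 20436 genes listed in the deposited tables. The genes were selected on their ribosome footprints, which set wild type (WT) apart from all knockouts, and are given by name. The footprint difference between WT and the knockouts therefore chose them and is described below without a test. The samples were cytoplasmic lysates of the cerebral cortex of mice aged 28 to 35 days, and every group carries the same strain label, FVB.129P2-/Pde6b+ Tyr c-ch //AntJ. The 4 genotypes were WT, a single knockout of Fmr1 (the gene of FMRP, lost in fragile X syndrome), a single knockout of Cpeb1 (the gene of an RNA-binding protein that acts on cytoplasmic polyadenylation) and a double knockout of both. Each lysate was split between ribosome profiling, which counts the RNA fragments that ribosomes shield from nuclease, and RNA-seq of rRNA-depleted cytoplasmic RNA. There are 2 libraries per genotype and assay, whose titles carry the numbers 1 and 2, which makes 8 footprint and 8 RNA-seq libraries. The labels do not say which libraries come from separate animals, so p-values measure the spread between these samples, which may be technical, and they do not say how the WT animals were related to the knockouts.

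The 10 genes are not a pathway. Pla2g4e encodes a cytosolic phospholipase A2 relative that works as a calcium-dependent N-acyltransferase and makes the phospholipid precursors of anandamide and other N-acylethanolamines. Ganc encodes a neutral alpha-glucosidase and Capn3 a calpain protease best known from skeletal muscle, where its loss causes limb-girdle muscular dystrophy. B2m encodes beta-2-microglobulin, the light chain of MHC class I. Ndufaf1 is an assembly factor of respiratory complex I, and Rmdn3 tethers the outer mitochondrial membrane to the endoplasmic reticulum. Aqr is an intron-binding RNA helicase of the spliceosome, Wdr76 a WD-repeat protein linked to CUL4-DDB1 ubiquitin ligases and DNA maintenance, Exd1 an RNA-binding partner in germline piRNA production, and Pak6 a p21-activated kinase that acts downstream of Cdc42. In ribosome profiling the footprint count of a gene follows both how much of its RNA is present and how many ribosomes each RNA carries, so the RNA libraries of the same lysates are the reference for each footprint value.

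The estimated counts of a library summed to between 16239703 and 24973757 for footprints and between 5423925 and 10246482 for RNA-seq. Levels are CPM, counts scaled to library size with the TMM method, and all 10 genes passed the filter on low counts in both assays. Footprints of Fmr1 were at most 8.69 CPM in the 4 libraries labelled as lacking it and at least 94.8 in the other 4, and those of Cpeb1 at most 7.73 against at least 33.4, as the labels say. All 8 neuronal markers (Snap25, Syt1, Rbfox3, Slc17a7, Camk2a, Gad1, Gad2 and Nefl) were above 0 in every library, with a summed footprint level of 9326 to 9790 CPM in WT and 9468 to 10709 in the knockouts. Both double knockout RNA-seq libraries lay at an end of the range for several of the genes below. Replicate 1 was the lowest of 8 for Capn3, Ganc, B2m, Aqr and Rmdn3 and the highest for Pla2g4e, Wdr76 and Pak6. Double knockout replicate 2 was the lowest of 8 for Pla2g4e and Exd1 and the highest for B2m. Its summed choroid plexus and ependyma markers (6 genes, Ttr among them) were also the lowest, at 17.0 CPM, while the WT RNA libraries had 62.5 and 236.9. In footprints these markers summed to 26.2 to 27.9 CPM in WT and 22.5 to 150.7 in the knockouts. The double knockout footprint libraries had 66.2 and 47.6. The part of these markers in the results was not tested. The mean RNA change over the knockouts is given with and without double knockout replicate 2 for Pla2g4e, Exd1 and B2m. In whole cortex, fewer cells that express a gene and less of its RNA per cell cannot be told apart.

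Per the submitters' processing notes the build was mm10, and positions are those of the RefSeq table of the matching GRCm38.p6 assembly. The genes span bases 114101161 to 122153082, which is 8.05 Mb. Aqr (chr2:114101161-114175339) sits at -6.07 Mb, counted from the lowest base of Pla2g4e to its own. Within 2 Mb of Pla2g4e (chr2:120166412-120245630, minus strand) lie Pak6 (chr2:118663045-118698020), Rmdn3 (chr2:119136998-119157034), Exd1 (chr2:119516505-119547627), Ndufaf1 (chr2:119655446-119662839), Ganc (chr2:120403896-120460866), Capn3 (chr2:120463593-120504919), Wdr76 (chr2:121506723-121544860) and B2m (chr2:122147687-122153082). Ganc and Capn3 are 2726 bases apart on the same strand, and the whole of B2m lies inside the annotated span of Patl2, whose footprints were at most 0.32 CPM in any library. Exd1 and Chp1 start 79 bases apart on opposite strands, and Wdr76 starts 66 bases from Mfap1a. Ganc shares 259 bases with Tmem87a, and whether the authors' counting used strand is not given in the sources used here.

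The bases just upstream of 4 of the genes with the widest footprint gaps are shown for what their starts have in common, since these starts lie close together and the genes moved in both directions. The sequences are RefSeq's (GRCm38.p6), 5′ to 3′ on the strand of the gene, ending at the base before its start, and cut where a neighbouring protein-coding gene begins. Capitals mark matches to 5 motifs searched on both strands: TATAAA (an element of core promoters), CCAAT (the box of that name), GGGCGG (GC box), TGACGTCA (cAMP response element) and the core of the interferon regulatory factor site, which is GAAA written again after any 2 bases.
Capn3 (chr2:120463343-120463592, plus strand): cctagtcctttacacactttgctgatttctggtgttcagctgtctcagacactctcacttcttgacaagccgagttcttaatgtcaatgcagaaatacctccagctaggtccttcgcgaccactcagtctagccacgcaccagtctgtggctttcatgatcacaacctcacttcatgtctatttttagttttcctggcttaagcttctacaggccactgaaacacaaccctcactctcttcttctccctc
B2m (chr2:122147437-122147686, plus strand): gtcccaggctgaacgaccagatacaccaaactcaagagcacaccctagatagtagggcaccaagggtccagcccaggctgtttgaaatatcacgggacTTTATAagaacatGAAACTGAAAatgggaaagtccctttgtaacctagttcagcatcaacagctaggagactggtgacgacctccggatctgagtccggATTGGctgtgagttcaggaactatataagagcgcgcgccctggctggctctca
Exd1 (chr2:119547628-119547706, minus strand): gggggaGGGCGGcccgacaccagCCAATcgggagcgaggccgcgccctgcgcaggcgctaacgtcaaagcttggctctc
Wdr76 (chr2:121506657-121506722, plus strand): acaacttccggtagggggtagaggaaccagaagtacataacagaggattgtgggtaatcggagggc

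The printed windows of Exd1 and Wdr76 are cut to 79 and 66 bases, so fewer bases were searched there. B2m held a reverse TATAAA 152 to 147 bases before its start, a reverse CCAAT 53 to 49 bases before it, and the interferon regulatory factor core 139 to 130 bases before it. Only matches to the motifs as written were marked, so the similar tatataag nearer the B2m start carries no capitals. Exd1 held GGGCGG at 73 to 68 and CCAAT at 56 to 52 bases before its start, and the Capn3 window held none of the 5. The printed bases of Wdr76 held none either, while its full 250-base window held GGGCGG 217 to 212 bases before the start. Over all 32851 RefSeq windows of 250 bases, 12.4% held TATAAA, 33.8% CCAAT, 32.7% GGGCGG, 1.55% TGACGTCA and 2.98% the interferon regulatory factor core. B2m and Exd1 thus shared CCAAT, and the full windows of Exd1 and Wdr76 shared GGGCGG, while no motif was in every window. Of the full 250-base windows, G and C made up 46.8% for Capn3, 50.8% for B2m, 58.8% for Wdr76 and 68% for Exd1. The median over all windows was 52.4%. The Pla2g4e window is not shown, because the gene's annotated span reaches 295 bases beyond the start that the window is built on.

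The footprints of the 2 lipid and sugar enzymes were higher in the knockouts. Values are given for replicate 1 and then replicate 2. Pla2g4e footprints were 10.7 and 9.91 CPM in WT, 51.6 and 56.1 on loss of Fmr1, 48.9 and 61.3 on loss of Cpeb1, and 54.4 and 55.6 on loss of both. All 6 knockout libraries stood far above both WT libraries, and the 3 knockouts overlapped each other. The mean was 10.3 ± 0.56 CPM (SD, n = 2) in WT and 54.7 ± 4.25 (SD, n = 6) over the knockouts, 5.30-fold higher, and the fitted log2 change was 2.40 ± 0.10 (SE). This gene rested on 215 to 1518 footprint counts per library. Ganc, whose start is 0.24 Mb away, had 7.39 and 5.90 CPM in WT, 8.79 and 8.23 on loss of Fmr1, 8.74 and 8.48 on loss of Cpeb1, and 8.84 and 8.87 on loss of both. Its knockout libraries lay within a narrow band above both WT libraries, which differed from each other by more than the knockouts did, and the log2 change was 0.38 ± 0.12. Without WT replicate 1 it was 0.53 and without WT replicate 2 it was 0.25.

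Capn3, the calpain next to Ganc, went the other way. Its footprints were 5.67 and 7.42 CPM in WT, 3.32 and 2.76 on loss of Fmr1, 2.20 and 2.34 on loss of Cpeb1, and 1.71 and 2.05 on loss of both. Both WT libraries were above all knockout libraries, the mean over the knockouts was 63.4% lower, and the log2 change was -1.47 ± 0.17 from 33 to 161 counts per library. Capn3 is a muscle protease, so skeletal muscle markers were read beside it: the 6 markers summed to 17.4 and 20.7 CPM in the WT footprint libraries at their lowest and highest and to 15.6 to 19.5 in the knockouts, ranges that overlap.

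B2m was also lower in the knockouts. Its footprints were 30.3 and 33.8 CPM in WT, 19.1 and 19.6 on loss of Fmr1, 22.04 and 21.62 on loss of Cpeb1, and 17.2 and 16.7 on loss of both. The 2 libraries of each knockout lay closer to each other than to any other genotype, and the mean over the knockouts was 39.6% below WT with a log2 change of -0.73 ± 0.08. Microglia are the cortical cells richest in MHC class I components. The 9 microglial markers (Cx3cr1, P2ry12 and Csf1r among them) summed to 74.6 and 90.8 CPM in WT and to 51.4 to 103.1 CPM in the knockouts, ranges that overlap. The double knockout, lowest for B2m, had 51.4 and 66.5 CPM of these markers, below both WT libraries, and their part in its B2m level was not tested. The T cell markers Cd3d and Cd8a were at 0 in every library.

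The 2 mitochondrial genes moved in opposite directions. Ndufaf1 footprints were 43.9 and 44.4 CPM in WT, 39.8 and 30.8 on loss of Fmr1, 34.3 and 29.5 on loss of Cpeb1, and 31.5 and 29.0 on loss of both, with a log2 change of -0.45 ± 0.08. Fmr1 knockout replicate 1 was the knockout library nearest to WT. Rmdn3 had 16.97 and 20.56 CPM in WT, 26.01 and 23.35 on loss of Fmr1, 22.7 and 23.8 on loss of Cpeb1, and 22.7 and 24.7 on loss of both, with a log2 change of 0.35 ± 0.10. Both WT libraries lay below all knockout libraries, and the Rmdn3 change was 0.22 without WT replicate 1 and 0.49 without WT replicate 2.

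Among the genes of RNA and DNA handling, Aqr was lower and Wdr76 and Exd1 were higher in the knockouts. The helicase gene Aqr, the most deeply counted of the 10 with 1271 to 2812 footprints per library, had 109.8 and 129.6 CPM in WT, 94.9 and 86.2 on loss of Fmr1, 99.3 and 91.7 on loss of Cpeb1, and 88.8 and 78.8 on loss of both. Its log2 change was -0.42 ± 0.08, and the lower WT library was close to the highest knockout library. The size of this change rests on which WT library is kept, being -0.60 without WT replicate 1 and -0.22 without WT replicate 2. Wdr76 had 4.91 and 5.35 CPM in WT, 7.15 and 6.92 on loss of Fmr1, 7.98 and 6.75 on loss of Cpeb1, and 7.27 and 8.995 on loss of both, a log2 change of 0.55 ± 0.14. Exd1 is a germline gene and the thinnest here, with 17 to 73 footprint counts per library. It had 0.68 and 1.29 CPM in WT, 2.35 and 3.20 on loss of Fmr1, 2.24 and 1.98 on loss of Cpeb1, and 2.64 and 1.99 on loss of both. The 2 WT libraries differed by nearly as much as the higher of them did from the lowest knockout, and the log2 change was 1.30 ± 0.29.

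Pak6, the kinase, had the smallest separation. Its footprints were 14.9 and 12.7 CPM in WT, 16.5 and 17.2 on loss of Fmr1, 15.8 and 18.6 on loss of Cpeb1, and 18.4 and 20.0 on loss of both, with a log2 change of 0.35 ± 0.11. Without WT replicate 1 the Pak6 change was 0.55, and without WT replicate 2 it was 0.18. Its gap, the distance in log2 CPM between the nearest WT and knockout libraries, was 0.08. The gap was 2.18 for Pla2g4e, 0.76 for Capn3, 0.58 for Exd1, 0.46 for B2m and 0.33 for Wdr76, and under 0.25 for the other 5. So 6 of the 10 genes were higher and 4 were lower in the knockouts, each with both WT libraries outside all 6 knockout libraries. Over all 13774 genes tested in footprints this was so for 6.39%, with knockouts higher in 2.9% and lower in 3.49%, and a gap of at least 0.25 was reached by 0.356%. Since this separation picked the genes, nothing is read from their own count.

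**Figure D1:**
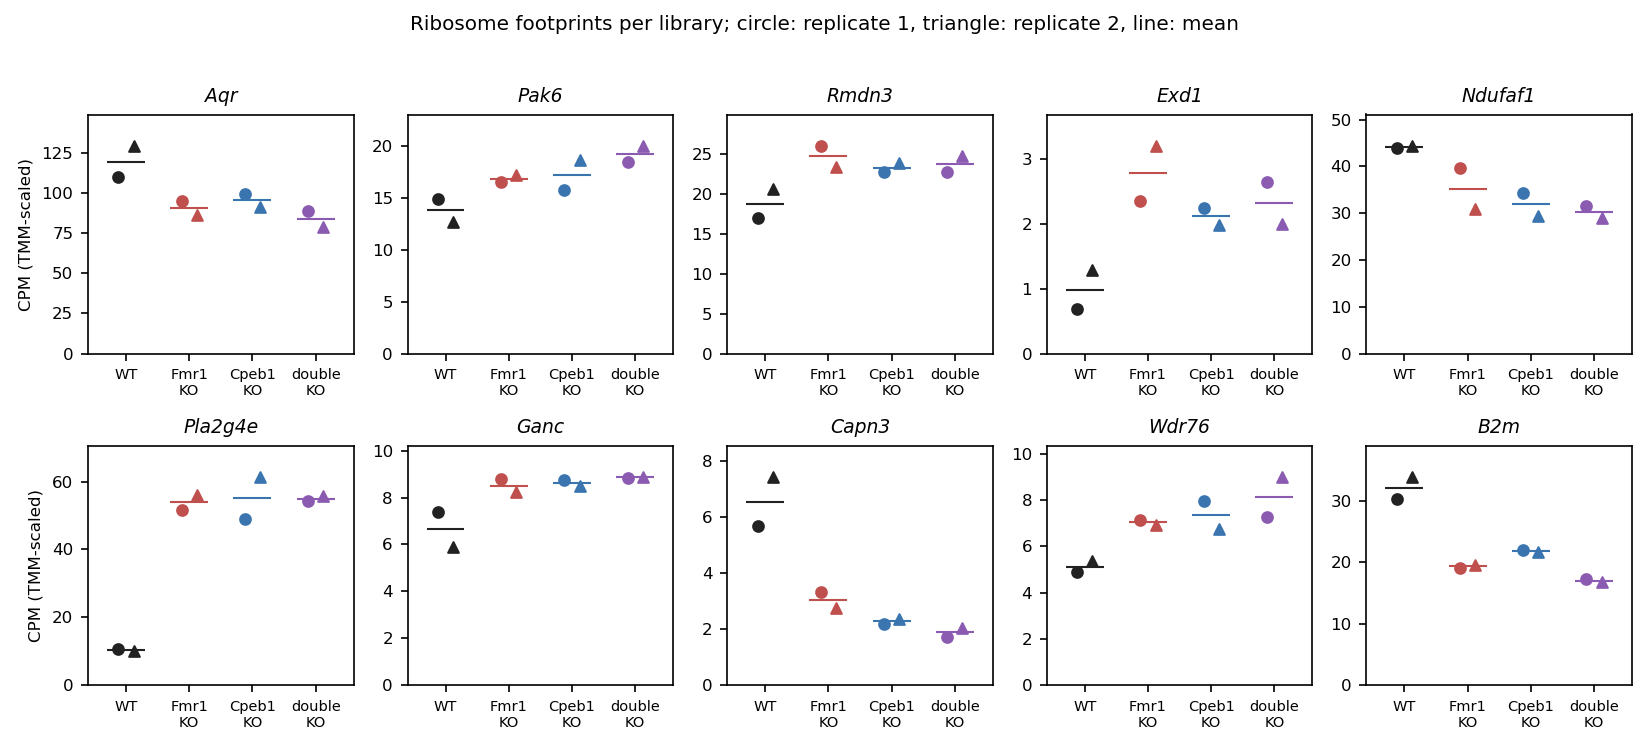
Ribosome footprints of the 10 genes in TMM-scaled CPM (vertical axis, from 0) for the 4 genotypes, with 1 point per library and a line at the mean of 2 libraries, in chromosomal order. Pla2g4e stands at 10.7 CPM or less in WT and at 48.9 or more in each knockout library, while Capn3 and B2m are lower in all 3 knockouts.

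Levels per length were compared as the authors' TPM. In WT footprints the order was B2m (122.6 TPM), Ndufaf1 (50.6), Aqr (28.6), Rmdn3 (14.7), Pak6 (7.30), Pla2g4e (4.20), Wdr76 (3.58), Capn3 (3.19), Ganc (2.60) and Exd1 (0.63). Capn3 could not be ranked against Wdr76 or Ganc, since its WT libraries of 2.71 and 3.67 TPM overlapped the range of both. In the knockouts the Pla2g4e median was 22.1 TPM, beside 21.6 for Aqr and 18.6 for Rmdn3, which were both far above it in WT. In WT RNA Pla2g4e had 20.99 and 29.10 TPM, about the level of Aqr at 27.2 and 24.6, and Capn3 and Exd1 were the lowest.

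RNA from the same lysates was not used to pick the genes and could be tested. None of the 10 passed edgeR's quasi-likelihood test in the mean of the 3 knockouts against WT, with adjusted p-values between 0.801 and 0.976 over all 13287 genes tested, of which 0.00753% were called. Unadjusted, 0 of the 10 were under 0.05, where 6.07% of all genes were, and DESeq2 called 0 as well. The deleted gene Cpeb1 itself was not called in RNA, at -0.85 ± 0.14 in this contrast (edgeR adjusted p = 0.491) and -1.12 ± 0.18 in the Cpeb1 knockout against WT (edgeR adjusted p = 0.225). A member that misses the threshold here is therefore not shown to be at the WT level.

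Pla2g4e RNA was 37.6 and 52.1 CPM in WT, 30.0 and 32.7 on loss of Fmr1, 45.4 and 61.4 on loss of Cpeb1, and 64.8 and 10.98 on loss of both. The double knockout held both the highest and the lowest of the 8 libraries, and the Cpeb1 knockout overlapped WT. Both Fmr1 knockout libraries lay below both WT libraries, with a log2 change of -0.52 ± 0.52 that was not called (edgeR adjusted p = 0.769). The log2 change over the knockouts was -0.17 ± 0.42 (SE) with a 95% interval of -1.09 to 0.74. The footprint change picked the gene, so the difference between the assays was not tested. Without double knockout replicate 2 the RNA change was 0.16. The footprints of the double knockout did not show this spread, with 54.4 and 55.6 CPM. Read as footprint CPM over the RNA CPM of the library with the same genotype and number, Pla2g4e stood at 0.28 and 0.19 in WT, 1.72 and 1.71 on loss of Fmr1, 1.08 and 1.00 on loss of Cpeb1, and 0.84 and 5.07 on loss of both, the last over the low RNA value of that library. This ratio holds the footprints that picked the gene and was not tested against WT.

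For the 4 genes with lower footprints, RNA was not lower in step. Capn3 RNA was 3.90 and 2.35 CPM in WT and 1.69 to 3.90 in the knockouts, from 13 to 39 counts per library, and its WT libraries spanned most of that range. B2m RNA was 11.9 and 7.40 CPM in WT, 13.6 and 13.9 on loss of Fmr1, 10.96 and 9.93 on loss of Cpeb1, and 6.53 and 15.6 on loss of both. The double knockout again held the lowest and the highest library, and the log2 change was 0.20 ± 0.28 with a 95% interval of -0.42 to 0.83. Without double knockout replicate 2 it was -0.05. Ndufaf1 RNA was 23.5 and 23.6 CPM in WT and 24.3 to 31.4 in the knockouts. It was the 1 gene of the 10 whose WT RNA libraries lay outside all knockout libraries, by a gap of 0.04 and with the knockouts higher, opposite to its footprints. Over all genes tested in RNA, 5.32% were set apart, 3.02% with the knockouts higher and 2.3% with them lower. Aqr RNA was 82.6 and 75.05 CPM in WT and 71.5 to 90.8 in the knockouts, an overlap, with a log2 change of 0.06 ± 0.10.

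For the genes with higher footprints, RNA gave overlapping ranges throughout. Rmdn3 RNA had 47.6 and 55.4 CPM in WT and 45.7 to 68.0 in the knockouts, a log2 change of 0.22 ± 0.15. Pak6 RNA had 59.5 and 65.1 CPM in WT and 40.0 to 73.3 in the knockouts, a log2 change of -0.19 ± 0.13. Ganc, Wdr76 and Exd1 differed from WT by 0.09 ± 0.17, -0.10 ± 0.22 and -0.16 ± 0.34 on the log2 scale. Exd1 RNA was again sparse, with 8 to 28 counts per library, and without double knockout replicate 2 its change was -0.07.

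**Figure D2:**
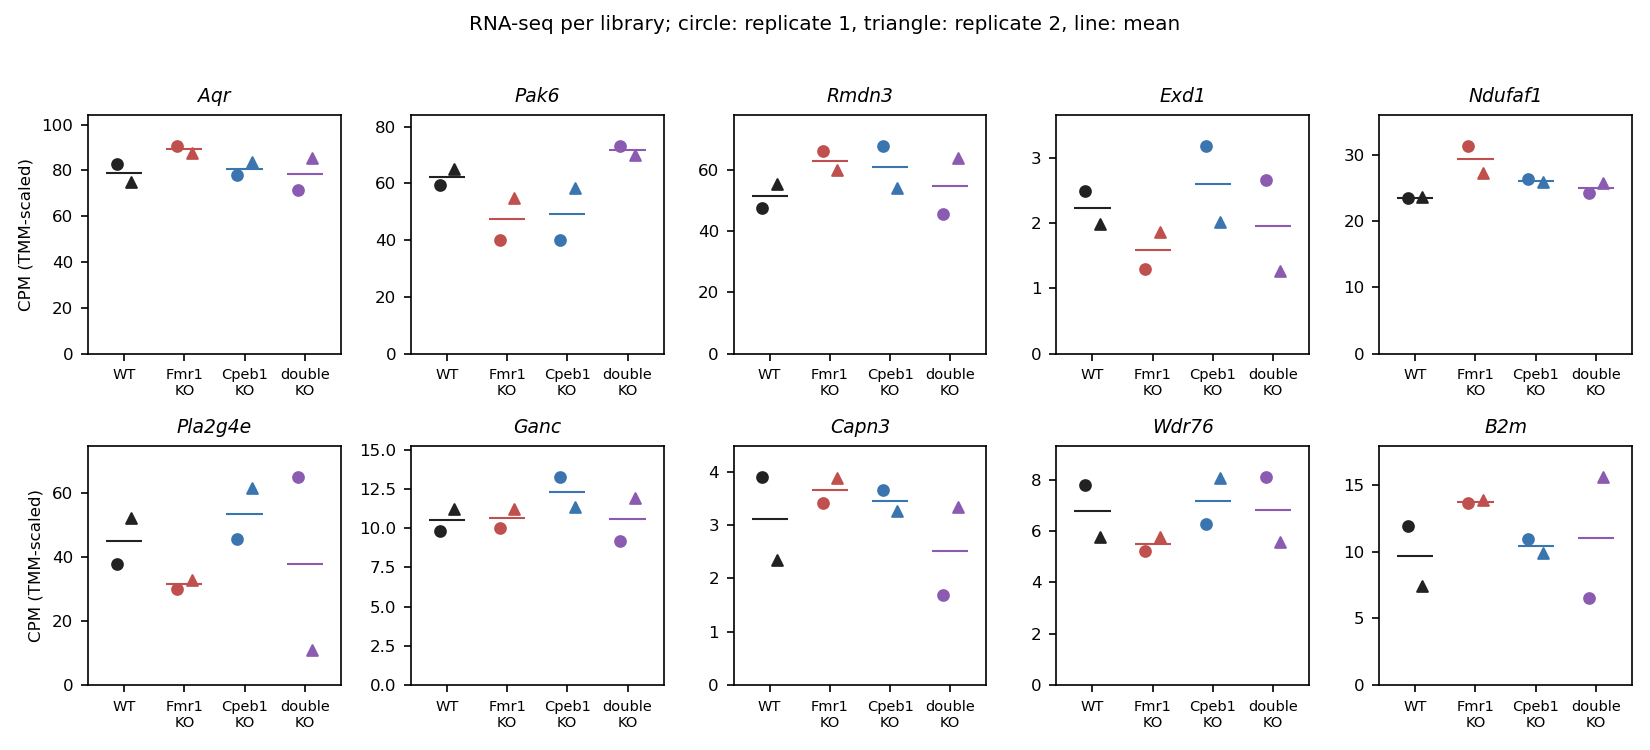
RNA-seq levels of the 10 genes in TMM-scaled CPM (vertical axis, from 0), laid out as in the plot of footprints. Knockout and WT libraries overlap for 9 of the 10, and the double knockout libraries of Pla2g4e lie at 64.8 and 10.98 CPM.

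The same ratio of footprint CPM to RNA CPM was read for the other genes, library number by library number and without a test. Ndufaf1, the complex I assembly factor, stood at 1.87 and 1.88 in WT and at 1.13 to 1.30 in the knockouts, and Aqr, the helicase, at 1.33 and 1.73 against 0.92 to 1.27. Both had WT ratios above those of all 6 knockout pairs of libraries. Capn3 stood at 1.45 and 3.16 in WT and 0.60 to 1.01 in the knockouts, also without overlap, though on few RNA counts. B2m, with 2.55 and 4.57 in WT, overlapped the knockouts, whose highest and lowest ratios, 2.63 and 1.07, were both in the double knockout. Exd1, with 0.27 and 0.65 in WT and 0.70 to 1.80 in the knockouts, had lower WT ratios without overlap, as did Pak6, by the narrow margin of 0.2509 to 0.2514. The WT ratios of Ganc, Wdr76 and Rmdn3 overlapped those of the knockouts. So 6 of the 10 genes, Pla2g4e among them, had WT ratios outside all knockout ratios, as did 8.04% of the 13008 genes with a ratio in every library, and since footprints chose the genes nothing is read from this count.

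Each knockout was also set against WT in RNA. No member was called in the Fmr1 knockout (0.00753% of all genes called), the Cpeb1 knockout (0%) or the double knockout (0.00753%), and DESeq2 called none either. In the Fmr1 knockout 2 of 10 were under an unadjusted 0.05 in edgeR, as were 8.09% of all genes: Pak6, with a log2 change of -0.42 ± 0.16 (adjusted p = 0.588), and Ndufaf1, with 0.32 ± 0.14 (adjusted p = 0.611). In the Cpeb1 knockout 1 of 10 was, again Pak6, with -0.36 ± 0.16 (edgeR adjusted p = 0.441), where 11% of all genes were, and in the double knockout 0 were, where 4.23% of all genes were. With double knockout replicate 1 left out, so that replicate 2 stood alone, the Pla2g4e log2 change in the double knockout against WT was -2.20. With both libraries it was -0.27 ± 0.52. Replicate 1, at 64.8 CPM, lay above both WT libraries, at 37.6 and 52.1 CPM.

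By the mean of 2 libraries, Pak6 RNA in the double knockout (71.7 CPM) was nearer to WT (62.3) than in the Fmr1 (47.4) or Cpeb1 knockout (49.2). Pak6 RNA levels were 40.0 and 54.7 CPM on loss of Fmr1, 40.1 and 58.3 on loss of Cpeb1, and 73.3 and 70.1 on loss of both. Both double knockout libraries lay above both WT libraries, which had 59.5 and 65.1 CPM. Both WT and both double knockout libraries lay above all 4 single knockout libraries, by a gap of 0.03. Of the 10 genes, 2 were split in this way, Pak6 and, with a gap of 0.01 and the single knockouts higher, Ndufaf1, while 12.2% of all genes tested in RNA were. The authors' deposited table for this pooled comparison gives Pak6 a log2 value of 0.39 with an adjusted p of 2.80e-04, and its columns do not state which side the sign refers to. In the pairwise fits Pak6 RNA differed by 0.63 ± 0.16 between the double and the Fmr1 knockout (edgeR adjusted p = 0.206) and by 0.57 ± 0.16 between the double and the Cpeb1 knockout (edgeR adjusted p = 0.117). Neither was called with all 8 libraries, where 0% and 0.00753% of all genes were, while the authors' deposited tables give them adjusted p-values of 0.0240 and 0.0269. Without double knockout replicate 2 these changes were 0.86 and 0.81, and without Cpeb1 knockout replicate 2 the change against the Cpeb1 knockout was 0.76. Pak6 footprints were not split in this way: they were 14.9 and 12.7 CPM in WT, 16.5 and 17.2 on loss of Fmr1 and 18.4 and 20.0 on loss of both, and 0 of the 10 genes had footprints split by these 4 against 4 libraries, where 3.06% of all genes did.

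The other RNA contrasts between knockouts called no member. None of the 10 passed in edgeR between the Fmr1 and the Cpeb1 knockout (0.00753% of all genes called), where 0 were under an unadjusted 0.05, beside 1.86% of all genes. Pak6 was the 1 gene of the 10 under an unadjusted 0.05 against the Fmr1 knockout (15.7% of all genes) and against the Cpeb1 knockout (19.2%). Pla2g4e moved with single libraries here too. Without double knockout replicate 2 its log2 change in the double against the Fmr1 knockout was 1.24. Without double knockout replicate 1 its log2 change in the double against the Cpeb1 knockout was -2.44. The direction of Pla2g4e RNA in the double knockout thus depends on which library is kept.

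The footprint contrasts between knockouts leave out the WT libraries, though genes picked for being alike in all knockouts are also unlikely to differ here. None of the 10 was called between the Fmr1 and the Cpeb1 knockout (0.0581% of all genes), the double and the Fmr1 knockout (0.334%), or the double and the Cpeb1 knockout (5.6%), by edgeR or by DESeq2. Unadjusted, 0, 1 and 1 of the 10 were under 0.05, where 4.89%, 15.9% and 24.6% of all genes were. Pla2g4e differed between knockouts by -0.03 ± 0.10, 0.03 ± 0.10 and 0.00 ± 0.10 on the log2 scale. For this gene the interval between the double and the Fmr1 knockout ran from -0.19 to 0.25, small beside its difference from WT. B2m came closest to the threshold, with 17.2 and 16.7 CPM in the double knockout below 22.04 and 21.62 in the Cpeb1 knockout, a log2 change of -0.36 ± 0.10 (edgeR adjusted p = 0.0595). With WT replicate 1 or WT replicate 2 left out the change was still -0.36. WT libraries are not compared in this contrast, but they enter the shared estimate of the spread. The adjusted p, which is near the threshold, can therefore move with them. Capn3 footprints were 1.71 and 2.05 CPM in the double knockout and 3.32 and 2.76 in the Fmr1 knockout, a log2 change of -0.70 ± 0.25 (edgeR adjusted p = 0.214). The Capn3 values lay in the descending order WT, Fmr1 knockout, Cpeb1 knockout, double knockout without overlap between genotypes in footprints, but the differences among the knockouts did not pass the test.

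Translational efficiency, which asks how far footprints moved beyond RNA, was tested between knockouts as an interaction of assay and genotype in edgeR. No member was called between the Fmr1 and the Cpeb1 knockout (0.00768% of all genes), the double and the Fmr1 knockout (0%) or the double and the Cpeb1 knockout (0.00768%), and DESeq2 called none. In each of these contrasts 1 of 10 was under an unadjusted 0.05, beside 1.61%, 6.61% and 8.67% of all genes. Exd1 was that gene between the single knockouts, at 1.18 ± 0.54 (edgeR adjusted p = 1). Pak6 was that gene in both contrasts with the double knockout, at -0.48 ± 0.21 against the Fmr1 knockout (edgeR adjusted p = 0.732) and -0.45 ± 0.21 against the Cpeb1 knockout (edgeR adjusted p = 0.564). The authors' deposited table for the single knockouts differs for Pla2g4e: it gives a log2 value of -0.65 for translational efficiency with an adjusted p of 0.0231, from log2 values of 0.67 in RNA and 0.02 in footprints.

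The 10 genes are not the only genes of their stretch whose footprints set WT apart. Between the first and the last of them 98 genes are listed and 82 were tested in footprints. Of these 82, 19 were set apart (23.2%), with the knockouts higher for 12 and lower for 7. With the 10 left out, 9 of 72 were (12.5%), beside 7.51% of the 972 genes on the rest of the chromosome and 6.39% of all genes. All 5 genes of the stretch with a gap of at least 0.25 were among the 10. The median size of the difference between knockouts and WT was 0.16 log2 units over the 82 genes and 0.13 without the 10, beside 0.08 over all genes. In RNA the same stretch was not apart: 3 of 83 genes were set apart (3.61%), against 5.32% of all genes, and the median size of the difference was 0.11, as over all genes. The counts rest on both WT libraries: without WT replicate 1 or 2 they were 32 and 36 in footprints (24.1% and 20.7% of all genes) and 21 and 14 in RNA (28.2% and 18.6%), and in RNA without double knockout replicate 1 or 2 they were 8 and 6 (13.2% and 8.88%). Neighbouring genes are not replicates of each other, and no test was made of these shares.

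The other genes of the stretch with at least 50 counts had smaller separations than Pla2g4e. Those higher in the knockouts were Ccdc32 (gap 0.19), Srp14, a subunit of the signal recognition particle (0.08), Ppip5k1, an inositol pyrophosphate kinase (0.07), Eif2ak4, the amino acid sensor kinase GCN2 (0.04), and Chp1, a calcium-binding regulator of sodium-proton exchange (0.03). Those lower in the knockouts were Haus2 of the augmin complex (gap -0.11) and Dph6, an enzyme of diphthamide synthesis (-0.11). Ccdc32 footprints were 88.5 and 84.7 CPM in WT and 101.1 to 120.5 in the knockouts, and Haus2 footprints were 28.5 and 30.3 CPM in WT and 19.3 to 26.3 in the knockouts. In RNA none of these 7 genes had WT libraries outside all knockout libraries.

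**Figure D3:**
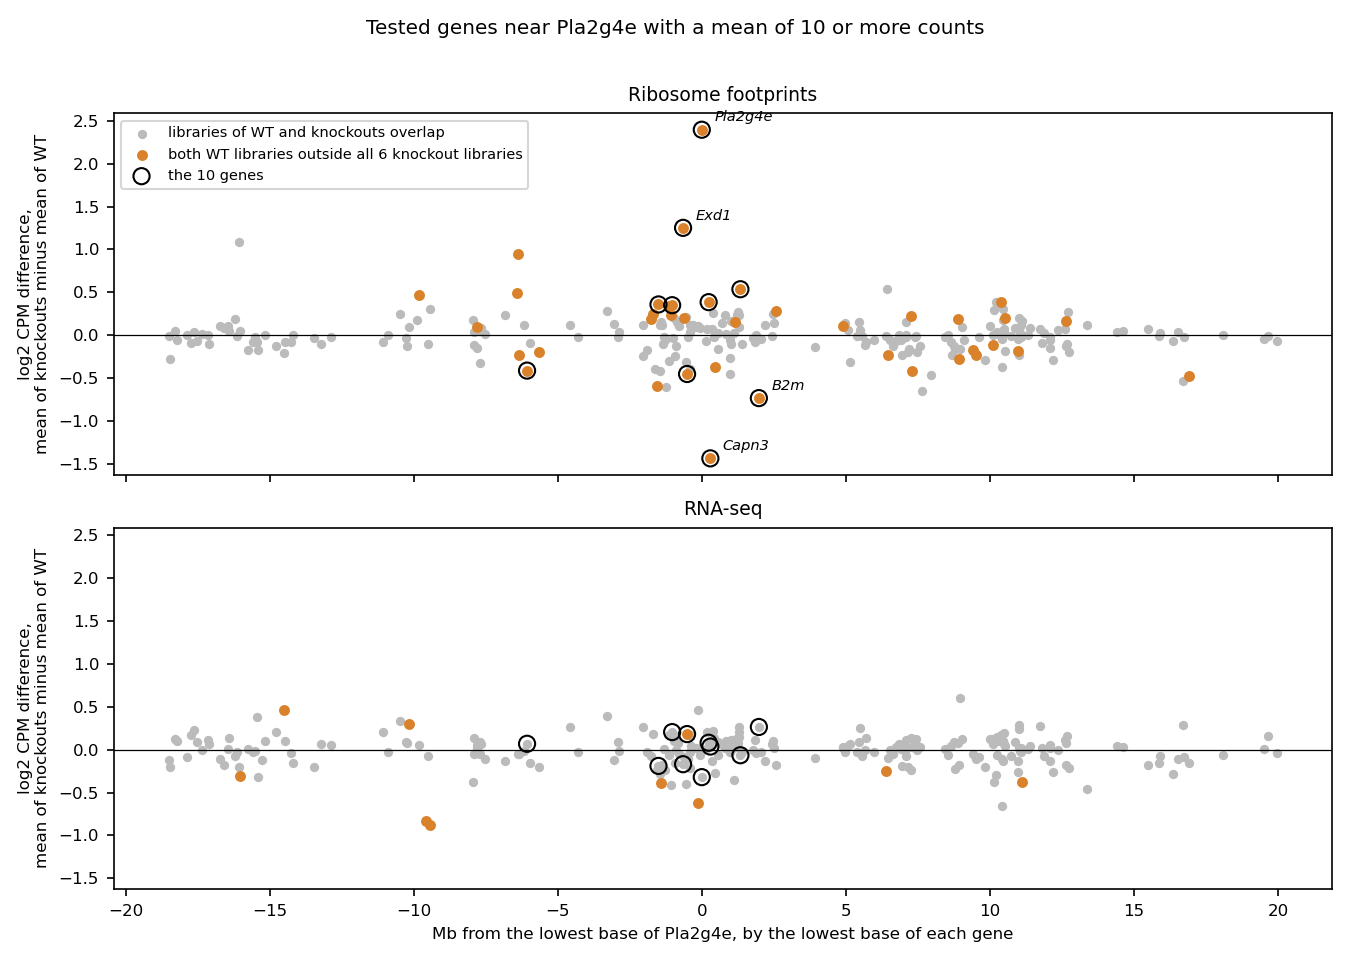
Difference in log2 CPM between the mean of the 6 knockout libraries and the mean of the 2 WT libraries (vertical axis) for tested genes within 20 Mb of Pla2g4e that average 10 or more counts, by distance from its lowest base in Mb (horizontal axis), for footprints above and RNA-seq below. The footprint differences of Pla2g4e, Exd1, B2m and Capn3 lie far from 0 in both directions, and the RNA differences of the 10 genes (black rings) lie within the cloud of their neighbours.

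Shares were also counted in bins of 5 Mb from the lowest base of Pla2g4e, with the 10 selected genes left out. In footprints 6 of 20 genes were set apart from -10 to -5 Mb (30%), 6 of 43 from -5 to 0 Mb (14.0%), 4 of 36 from 0 to 5 Mb (11.1%) and 7 of 48 from 5 to 10 Mb (14.6%). Bins far from Pla2g4e reached similar shares to the last 3 of these, with 3 of 23 genes (13.0%) both from -100 to -95 Mb and from -55 to -50 Mb. The selected genes add 1 from -10 to -5 Mb, 4 from -5 to 0 Mb and 5 from 0 to 5 Mb. In RNA the same 4 bins from -10 to 10 Mb had 2 of 19, 2 of 42, 0 of 39 and 1 of 43.

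**Figure D4:**
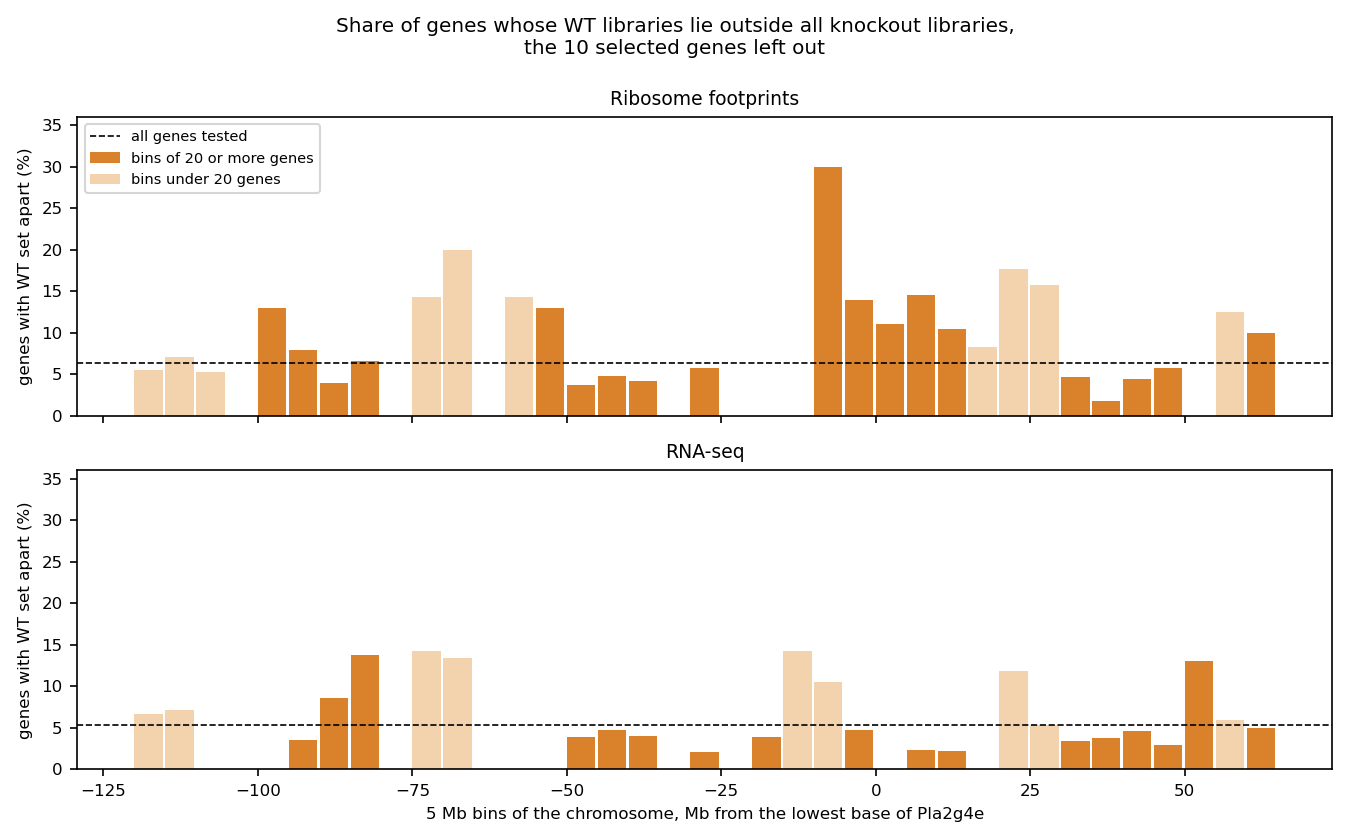
Share of tested genes (vertical axis, percent, from 0) whose WT libraries lie outside all 6 knockout libraries, in 5 Mb bins along the chromosome (horizontal axis, Mb from the lowest base of Pla2g4e), for footprints above and RNA-seq below, with the 10 selected genes left out and the share of all genes tested as a dashed line. The footprint bins from -10 to 10 Mb stand at 30%, 14.0%, 11.1% and 14.6%, above the line at 6.39%, as do some bins far from Pla2g4e, and the RNA bins over the same range reach at most 10.5%.

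Genes whose footprints followed the Pla2g4e pattern most closely were ranked by Pearson's r over the 8 footprint libraries, among 11701 genes averaging 50 or more counts. The 8 most alike were Gm5150 (0.99), Dph7 (0.97), Gramd2 (0.94), Dak (0.94), Col19a1 (0.93), Mtx3 (0.92), Scg5 (0.92) and Chst12 (0.92), of which Dph7 and Scg5 are on chromosome 2. Among the most opposed were Camk2d (-0.97), Efcab1 (-0.95) and Cyb5d1 (-0.95), on 3 other chromosomes. Of the other 9 genes of the list, Ganc was the most alike (0.89, rank 14), and B2m and Capn3 were at ranks 5 and 8 from the lowest (-0.92 each). Gm5150, a predicted gene on chromosome 3, had 0.04 and 0 CPM in WT and 2.55 to 4.14 in the knockouts. With 2 WT libraries at one level and 6 knockout libraries at another, r mostly measures that split, the libraries share their depth and preparation, and no p is given.

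Scg5, whose secretogranin product assists prohormone convertase processing, lies at -6.39 Mb from Pla2g4e, just outside the stretch. Its footprints were 379.5 and 236.8 CPM in WT, 529.8 and 620.8 on loss of Fmr1, 605.7 and 594.1 on loss of Cpeb1, and 544.5 and 575.7 on loss of both. Both WT libraries lay below all knockout libraries by a gap of 0.48, though they differed widely from each other. Its RNA overlapped, with 266.2 and 382.3 CPM in WT and 154.0 to 492.2 in the knockouts, the lowest again in double knockout replicate 2.

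The partners of the 10 genes in their own pathways were read from lists that exclude the genes themselves. Of the 5 other group IV phospholipase A2 genes, 1 was tested in footprints and 2 in RNA, and none was called in any tested contrast. Pla2g4a, the arachidonate-releasing member, had 4.47 and 6.08 CPM in WT footprints and 4.21 to 6.71 in the knockouts. Pla2g4d, the adjacent paralog, was near the floor, with 6 and 4 footprint counts in WT and 0 to 1 in each knockout library. Pla2g4b and Pla2g4f had at most 4 and 1 footprint counts in any library, and Pla2g4b, which lies inside the stretch, had 2.60 to 2.71 CPM in WT RNA and 1.09 to 2.11 in the knockouts, from 7 to 26 counts. Of 11 other genes of N-acylethanolamine metabolism 10 were tested in each assay and none was called. Napepld, which releases N-acylethanolamines from the lipids that Pla2g4e makes, had 22.4 to 23.1 CPM in WT footprints and 21.7 to 25.3 in the knockouts, and Faah, which degrades them, had 68.0 to 69.6 and 66.1 to 89.9. Neither was separated between WT and knockouts. In this list 2 of 10 genes were set apart in footprints, Gdpd3 (higher in the knockouts, from 14 to 56 counts) and Inpp5d (lower). In RNA 2 of 10 were, Naaa and Gdpd3, both higher in the knockouts. Over all genes tested 6.39% were set apart in footprints and 5.32% in RNA, shares that also stand beside the lists below. The median footprint difference of this list was 0.07 beside 0.00 over all genes.

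The list of 14 other calpain genes also holds the small subunit gene Capns1 and the inhibitor gene Cast. Of these 14, 10 were tested in each assay and none was called. Cast was the 1 gene of the list set apart in RNA, higher in the knockouts. Capn1 and Capn2, the calpains present in most tissues, had footprint levels of 37.4 to 40.4 and 98.0 to 104.0 CPM in WT and of 36.4 to 45.4 and 100.3 to 122.5 in the knockouts, so neither shared the lower footprints of Capn3. Capn12, with 13 to 26 counts, was the 1 calpain set apart in footprints, and like Capn3 it was lower in the knockouts, with 1.04 to 1.11 CPM in WT and 0.55 to 0.97 in the knockouts. Of 19 other genes of MHC class I presentation 15 were tested in footprints and 13 in RNA, and none was called. The class I heavy chain gene H2-D1 had 9.58 and 11.6 CPM in WT footprints and 9.61 to 15.3 in the knockouts, and H2-K1 had 2.88 to 3.73 and 3.11 to 4.78, both overlapping. The immunoproteasome subunit Psmb8 was the 1 gene of the list set apart in footprints and was lower in the knockouts. In RNA the 1 gene set apart was Calr, higher in the knockouts. The median footprint difference of this list was -0.01 beside 0.00 over all genes, so the lower footprints of B2m were not shared by its partners as a group.

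Of 15 other complex I assembly factors 13 were tested in each assay. Ndufaf4 was called in footprints between the double and the Cpeb1 knockout, with a log2 change of -0.49 ± 0.13 (edgeR adjusted p = 0.0483), a contrast in which 5.6% of all genes were called. Foxred1 was the 1 assembly factor whose footprints set WT apart, by a gap of 0.04. Of 11 partners of Wdr76 all were tested, and Cul4b, a scaffold of these ubiquitin ligases, was called in the same footprint contrast with -0.29 ± 0.07 (edgeR adjusted p = 0.0431). All 10 partners of Aqr in the intron-binding complex were tested and none was called or set apart in either assay. None of the 5 other p21-activated kinases tested was called or set apart, and Pak1 footprints were 617.0 and 665.3 CPM in WT at their lowest and highest and 560.7 to 689.9 in the knockouts. The 13 genes of the Rmdn3 list and the 3 tested glycoside hydrolase partners of Ganc had no call, and among the former Fis1 was set apart with lower footprints in the knockouts. Of 11 piRNA pathway partners of Exd1, 3 were tested in footprints and 4 in RNA, and none was called or set apart.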

How the data were processed

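RNA-seq and ribosome footprints of mouse cerebral cortex were analysed from the gene tables that the authors deposited for each of 16 libraries. Per the file headers these hold RSEM's expected counts and TPM per gene. Per the submitters' processing notes, cutadapt, Bowtie2, TopHat2, RSEM and DESeq2 were used with build mm10, and their settings are not given in the sources used here. The authors' deposited comparison tables give a log2 change and p-values, and are quoted where named.

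Expected counts were rounded and fitted with edgeR 4.0.16 in R 4.3.3 (TMM scaling, filterByExpr with a minimum count of 10, quasi-likelihood test, Benjamini-Hochberg over all genes tested, threshold 0.05), with the 8 libraries of an assay together and the replicate number as a block. Log2 CPM used a prior count of 2, and TPM served only to compare genes. The script was tested on simulated data. The 10 genes and all gene lists were chosen with earlier results of these data known. Named beside the 10 are genes of the stretch set apart in footprints (at least 50 counts, up to 5 a direction), list genes called in a tested contrast with examples, and the 8 genes most and 4 least like Pla2g4e in footprints, of which 1 is not reported here. Alternatives were another scaling, no filter on low counts, DESeq2 1.42.0, no block, another prior count, deposited TPM, and each library left out.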

Additional observations from a re-analysis of the deposited data

How the results depend on the processing

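Leaving out a library mattered most. In RNA, the mean change of the knockouts against WT turned its sign without WT replicate 1 for Capn3 (0.56) and Wdr76 (0.16), without WT replicate 2 for Pla2g4e (0.32), B2m (-0.21) and Aqr (-0.050), without Fmr1 knockout replicate 1 for Exd1 (0.066), without Cpeb1 knockout replicate 1 for Wdr76 (0.02), without double knockout replicate 1 for Capn3 (0.12), and without double knockout replicate 2 for Pla2g4e (0.16) and B2m (-0.05). None of these changes was called. Over the libraries left out they ran from -0.82 to 0.32 for Pla2g4e, -0.45 to 0.56 for Capn3, -0.36 to 0.066 for Exd1, -0.27 to 0.16 for Wdr76, -0.21 to 0.82 for B2m and -0.050 to 0.19 for Aqr. For contrasts between 2 genotypes, a fit without 1 library leaves 1 library in a genotype, so genes called in such fits are not counted. All 10 genes were apart in footprints under each alternative run, which their selection makes likely, beside 6.05% to 24.1% of all genes. In RNA 1 to 2 were apart, beside 5.22% to 28.2% of all genes. Of the genes of the stretch, 21 to 36 were apart in footprints (18 with deposited TPM) and 3 to 21 in RNA.

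In the fit without the replicate block the count of the 10 genes called was 0 in every contrast, as with it. Over all genes it moved calls in footprints from 772 to 207 for the double against the Cpeb1 knockout, from 46 to 4 for the double against the Fmr1 knockout and from 8 to 2 between the single knockouts. Deviations of libraries with the same number correlated from -0.10 to 0.55 in footprints and -0.03 to 0.53 in RNA, so the numbers were not shown to pair the samples. DESeq2 called more genes in all, 205 in footprints of the double against the Fmr1 knockout, and in RNA 45 for the Cpeb1 knockout against WT and 212 for the double against the Cpeb1 knockout. Without a filter these were 165, 4 and 206. Depth limits Exd1 and Capn3 most, with RNA counts as low as 8 and 13 in a library.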

Other observations

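Another gene of chromosome 2, chosen here after its values were seen, set WT apart in footprints well away from Pla2g4e. Ralgapa2, which encodes a subunit of a RalGTPase-activating complex and lies 26.1 Mb above Pla2g4e, had 21.8 and 20.9 CPM in WT, 12.9 and 15.3 on loss of Fmr1, 13.5 and 15.1 on loss of Cpeb1, and 11.7 and 10.8 on loss of both, a gap of -0.45. Its RNA overlapped, with 90.1 and 74.9 CPM in WT and 68.4 to 99.1 in the knockouts. Dph7, at -95.2 Mb from Pla2g4e, encodes an enzyme of diphthamide synthesis, as Dph6 inside the stretch does. Dph7 footprints were 19.7 and 21.9 CPM in WT and 28.8 to 31.9 in the knockouts, while Dph6 footprints were 31.3 and 32.4 CPM in WT and 26.3 to 29.1 in the knockouts, the opposite direction.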
